A study of Mus musculus with 8 samples.

Results

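The genes examined here encode the machinery with which the proximal tubule of the kidney takes filtered albumin back from the tubule fluid: *Lrp2*, *Cubn*, *Amn*, *Dab2*, *Clcn5*, *Ocrl*, *Fcgrt* and *Lrpap1*. They were chosen by name for their role, not by a cut-off on their values, though with earlier results of these data known. They make up 8 of the 55401 genes in the table, and all 8 were among the 15150 genes whose expression was high enough to be tested. RNA was sequenced from the kidney of 8 diabetic mice, with 1 library per mouse. The rFGF4 group (mice 1, 2, 3 and 5) received recombinant FGF4, a fibroblast growth factor, and the db/db group (mice 2, 3, 4 and 5) is labelled as the *db*/*db* model, mice that lack a working leptin receptor and become obese and diabetic. The series describes both groups as *db*/*db*, whereas the paper names mice made diabetic with streptozotocin and given rFGF4 or PBS vehicle, and the sources used here do not settle which model was sequenced. Neither group contains non-diabetic mice, so no level here can be set against a healthy kidney. Dose, duration and age are not given in the labels of the sequenced samples.

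Megalin, the product of *Lrp2*, and cubilin, the product of *Cubn*, are large receptors on the brush border of proximal tubule cells that bind albumin and many other filtered proteins. Cubilin has no membrane anchor of its own and needs amnionless (*Amn*) to reach the cell surface, the chaperone RAP (*Lrpap1*) keeps ligands off megalin while it folds, and the adaptor Dab2 links megalin to clathrin-coated pits. The chloride-proton exchanger ClC-5 (*Clcn5*) and the lipid phosphatase OCRL (*Ocrl*) serve the endosomes that follow, and their loss causes Dent disease and Lowe syndrome, in which protein of low molecular weight is lost in the urine. The neonatal Fc receptor FcRn (*Fcgrt*) binds albumin in acid endosomes and spares it from breakdown, and it is also made by podocytes and by cells outside the tubule. Loss of this uptake is one of the routes by which albumin reaches the urine in diabetic kidney disease.

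For none of the 8 genes did a difference between the groups pass the test. In the limma comparison on the scale log2(FPKM + 1), where FPKM is the number of fragments on a gene divided by its exon length and by the mapped reads of the library, 0 of 8 had an unadjusted p under 0.05, against 4.62% of all tested genes (700 genes). At the study's threshold of that p together with a 1.5-fold change the count was again 0 of 8, against 1.52% of tested genes (231 genes, 165 higher and 66 lower in rFGF4). With the libraries scaled to a common median ratio that split was 93 higher and 81 lower, relative to the proximal tubule markers it was 41 and 21, and the number of genes rose to 575 without rFGF4 mouse 5 and to 432 without db/db mouse 5. After Benjamini-Hochberg adjustment no gene of the table passed, which is 0% of those tested, and the smallest adjusted p was 0.918. The values of the 2 groups overlapped for all 8 genes, whereas 504 tested genes, or 3.33%, had groups that did not overlap. Of the 8 genes, 4 had a higher and 4 a lower mean in rFGF4, with a median log2 fold change of -0.01 beside a median of 0.09 over all tested genes. Genes higher in rFGF4 at an unadjusted p under 0.05 were 3.56% of those tested and genes lower 1.06%, with 0 of the 8 in either. Nothing in the labels says more of the mice than their number, so the p-values measure the spread between these animals only.

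The libraries were not alike. The summed FPKM of a library was 389404 to 529831 in rFGF4 and 481318 to 552600 in db/db, with rFGF4 mouse 1 lowest and with db/db mouse 5 apart from the rest of its group. Read numbers are not in the table, which leaves the fragments behind each value unknown, and depth relative to db/db mouse 2, judged from the smallest FPKM steps, was 0.91 to 1.12. Scaling the libraries to a common median ratio took factors of 0.907 to 1.296, the highest in rFGF4 mouse 1. All 12 general proximal tubule markers were expressed in every kidney, and their summed FPKM was 3127, 7987, 9974 and 7907 in rFGF4 mice 1, 2, 3 and 5 and 6893, 5468, 8427 and 5283 in db/db mice 2, 3, 4 and 5. The labels say only kidney, while the paper names renal cortex for the RNA of its PCR assays, and in such bulk tissue fewer proximal tubule cells and less RNA per such cell cannot be told apart.

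Sequences around the transcription starts of *Lrp2*, *Cubn* and *Lrpap1* are given because the RNA of these genes varied together from mouse to mouse, as described further on. Each run holds the bases from 250 before to 50 after the start in the direction of the gene, from RefSeq on GRCm38.p6, at chr2:69585980-69586279 for *Lrp2*, chr2:13491827-13492126 for *Cubn* and chr5:35105650-35105949 for *Lrpap1*, all on the minus strand. Capitals mark a match to the letters CAAAGT, which resemble one side of a binding site of the liver and kidney factor HNF4.
Lrp2: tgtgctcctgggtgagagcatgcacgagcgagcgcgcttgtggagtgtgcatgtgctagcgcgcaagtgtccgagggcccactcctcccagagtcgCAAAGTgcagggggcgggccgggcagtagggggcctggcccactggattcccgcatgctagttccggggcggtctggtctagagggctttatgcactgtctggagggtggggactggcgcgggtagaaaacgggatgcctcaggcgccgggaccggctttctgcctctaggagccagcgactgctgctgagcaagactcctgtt
Cubn: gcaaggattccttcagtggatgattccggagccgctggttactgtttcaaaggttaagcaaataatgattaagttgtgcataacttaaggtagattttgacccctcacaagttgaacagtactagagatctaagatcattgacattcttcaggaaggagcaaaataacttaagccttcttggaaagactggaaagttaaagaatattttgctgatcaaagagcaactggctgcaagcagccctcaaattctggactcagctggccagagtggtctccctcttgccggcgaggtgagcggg
Lrpap1: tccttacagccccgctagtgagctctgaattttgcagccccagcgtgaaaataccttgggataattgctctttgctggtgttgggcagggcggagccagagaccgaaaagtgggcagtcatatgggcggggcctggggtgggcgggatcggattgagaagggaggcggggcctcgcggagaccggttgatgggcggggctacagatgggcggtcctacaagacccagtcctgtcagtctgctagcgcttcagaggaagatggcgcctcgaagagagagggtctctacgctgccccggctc
The letters GTTAAT, one side of a site of HNF1, CAAAGT and the E-box CACGTG, read by factors that control lysosomal genes, were searched on both strands. The *Lrp2* window held 1 match, CAAAGT at -154 from the start, and those of *Cubn* and *Lrpap1* held none, where GTTAAT occurs in 7.1%, CAAAGT in 14.4% and CACGTG in 7.15% of 32841 RefSeq windows of the same length. The 8 genes have 10 windows in all. Of the remaining windows, CAAAGT was in those of *Ocrl*, of the first start of *Dab2* and of the second start of *Clcn5*, GTTAAT was in that of the second start of *Dab2* at -65, and CACGTG was in that of *Amn* at -26. A match of letters is a description and shows no binding. The *Lrp2* and *Lrpap1* windows were rich in CpG, with 20 and 18 CpG and a GC content of 65.0% and 61.3%, against a median of 7 CpG and 52.7% over all windows, whereas the *Cubn* window had 5 CpG and a GC content of 44.3%.

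The receptor genes themselves had the widest spread within groups on the log2 scale. *Lrp2* (ENSMUSG00000027070, chr2:69424340-69586065, minus strand, GRCm38) was measured at 25.8, 56.9, 82.6 and 66.3 FPKM in rFGF4 mice 1, 2, 3 and 5 and at 68.2, 32.1, 73.9 and 35.3 FPKM in db/db mice 2, 3, 4 and 5. Each group thus held both high and low kidneys, with rFGF4 mouse 1 and db/db mice 3 and 5 low and no mouse between 35.3 and 56.9 FPKM. The means were 57.9 ± 23.9 FPKM (SD, n = 4) in rFGF4 and 52.4 ± 21.7 FPKM (SD, n = 4) in db/db, a log2 fold change of 0.12 (standard error 0.41, 95% interval -0.82 to 1.06, limma adjusted p = 0.972). A two-sided exact permutation test of the means gave p = 0.914, where the smallest p that 4 mice against 4 allow is 0.0286. The highest kidney had 3.21 times the *Lrp2* of the lowest, and the SD within groups, 0.67 on the log2 scale, was above that of 89.1% of tested genes, whose median was 0.27.

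*Cubn* (ENSMUSG00000026726, chr2:13276338-13491813, minus strand) stood at 9.30, 17.5, 24.5 and 22.8 FPKM in rFGF4 mice 1, 2, 3 and 5 and at 22.9, 13.1, 25.7 and 13.8 FPKM in db/db mice 2, 3, 4 and 5. The order of the mice was almost that of *Lrp2*, with the same 3 kidneys lowest. The group means were 18.5 ± 6.84 FPKM (SD, n = 4) in rFGF4 and 18.9 ± 6.36 FPKM (SD, n = 4) in db/db, a log2 fold change of -0.05 (standard error 0.33, 95% interval -0.82 to 0.71, limma adjusted p = 0.984, exact permutation p = 0.886). An exon of *Cubn* overlaps the gene Gm13270 on the opposite strand, and strand use in the counting is not stated, so reads of the pair cannot be told apart.

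*Amn* (ENSMUSG00000021278, chr12:111271095-111276426, plus strand), the partner that carries cubilin to the membrane, varied far less than *Cubn*. It was measured at 20.9, 24.3, 31.7 and 27.5 FPKM in rFGF4 mice 1, 2, 3 and 5 and at 28.4, 28.3, 28.3 and 22.3 FPKM in db/db mice 2, 3, 4 and 5. The first 3 db/db kidneys were nearly equal and db/db mouse 5 lay below them. The means of 26.1 ± 4.59 and 26.8 ± 3.0 FPKM (SD, n = 4 each) gave a log2 fold change of -0.04 (standard error 0.15, 95% interval -0.39 to 0.30, limma adjusted p = 0.972, exact permutation p = 0.800).

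*Lrpap1* (ENSMUSG00000029103, chr5:35091501-35105766, minus strand), the chaperone of megalin, had the highest mean of the 8 genes. Its level was 41.0, 63.5, 75.3 and 82.8 FPKM in rFGF4 mice 1, 2, 3 and 5 and 83.9, 60.9, 90.2 and 57.1 FPKM in db/db mice 2, 3, 4 and 5. Here too rFGF4 mouse 1 and db/db mice 3 and 5 were the 3 lowest kidneys. Means of 65.7 ± 18.2 FPKM in rFGF4 and 73.1 ± 16.4 FPKM in db/db (SD, n = 4 each) differed by less than either SD (log2 fold change -0.17, standard error 0.25, 95% interval -0.74 to 0.40, limma adjusted p = 0.941, exact permutation p = 0.543).

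*Dab2* (ENSMUSG00000022150, chr15:6299788-6440712, plus strand), the adaptor, was the gene with the lowest fold change. In rFGF4 mice 1, 2, 3 and 5 it was measured at 53.4, 22.3, 29.9 and 22.8 FPKM, and in db/db mice 2, 3, 4 and 5 at 38.4, 40.7, 43.0 and 24.4 FPKM. The rFGF4 group held both the highest kidney, mouse 1, and the 2 lowest. Its means were 32.1 ± 14.6 FPKM in rFGF4 and 36.6 ± 8.35 FPKM in db/db (SD, n = 4 each), a log2 fold change of -0.25 (standard error 0.30, 95% interval -0.93 to 0.44, limma adjusted p = 0.932, exact permutation p = 0.457). Without rFGF4 mouse 1 the log2 fold change was -0.52 with an unadjusted limma p of 0.0474, and with libraries weighted by their scatter it was -0.58 with an unadjusted limma p of 0.0164. Neither was significant after adjustment (adjusted p = 0.9996 and 0.391). An exon of *Dab2* overlaps Gm18888 on the opposite strand.

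Of the endosomal genes, *Clcn5* (ENSMUSG00000004317, chrX:7153810-7319358, minus strand) came nearest to a difference. ClC-5 was represented by 5.34, 6.05, 6.79 and 5.64 FPKM in rFGF4 mice 1, 2, 3 and 5 and by 4.52, 4.67, 5.77 and 4.51 FPKM in db/db mice 2, 3, 4 and 5. The groups overlapped through db/db mouse 4, which lay above rFGF4 mice 1 and 5. The means of 5.96 ± 0.629 FPKM in rFGF4 and 4.87 ± 0.608 FPKM in db/db (SD, n = 4 each) gave a log2 fold change of 0.25 (standard error 0.12, 95% interval -0.04 to 0.53), with an unadjusted limma p of 0.0822, an adjusted p of 0.918 and an exact permutation p of 0.0857. Without db/db mouse 4 the log2 fold change was 0.32 with an unadjusted limma p of 0.0464 (adjusted p = 0.9999), and it was 0.14 with the libraries scaled to a common median ratio.

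*Ocrl* (ENSMUSG00000001173, chrX:47912387-47965868, plus strand), the phosphatase, had the lowest level of the 8. It was measured at 3.16, 2.0, 1.81 and 2.18 FPKM in rFGF4 mice 1, 2, 3 and 5 and at 2.08, 1.92, 2.18 and 2.61 FPKM in db/db mice 2, 3, 4 and 5. Only rFGF4 mouse 1 stood above 3 FPKM. The log2 fold change was 0.03 (standard error 0.15, 95% interval -0.33 to 0.38, limma adjusted p = 0.980, exact permutation p = 0.857) from means of 2.29 ± 0.601 and 2.20 ± 0.294 FPKM (SD, n = 4 each).

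*Fcgrt* (ENSMUSG00000003420, chr7:45092990-45103851, minus strand) was even across the mice. FcRn was represented by 56.1, 64.6, 79.5 and 57.0 FPKM in rFGF4 mice 1, 2, 3 and 5 and by 48.7, 64.7, 56.3 and 53.8 FPKM in db/db mice 2, 3, 4 and 5. One kidney, rFGF4 mouse 3, lay above the others. Means of 64.3 ± 10.8 and 55.9 ± 6.66 FPKM (SD, n = 4 each) gave a log2 fold change of 0.19 (standard error 0.15, 95% interval -0.15 to 0.54, limma adjusted p = 0.920, exact permutation p = 0.229). FcRn works as a pair with beta-2-microglobulin, and *B2m*, named here after its values were seen, ranged from 222 to 1467 FPKM over the same 8 mice.

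**Figure D1:**
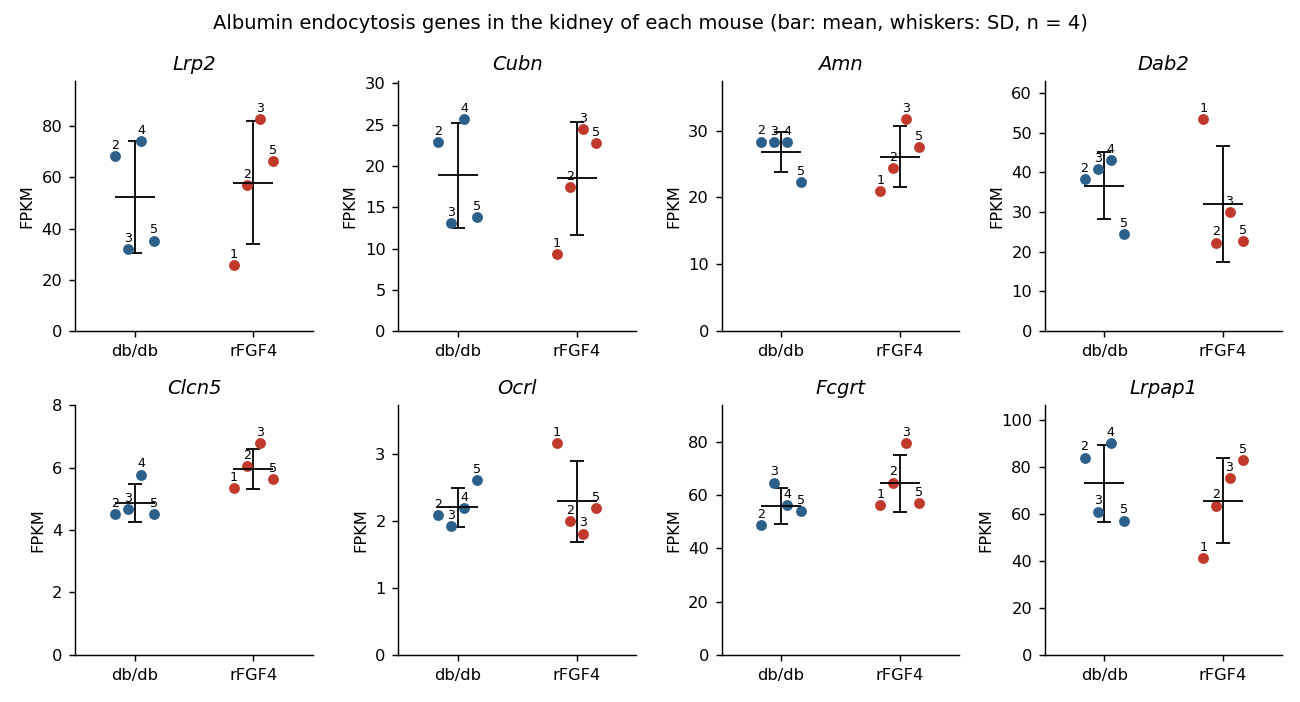
FPKM (vertical axes, from 0) of each gene in each mouse, db/db in blue and rFGF4 in red, with the mouse number beside each point, the mean as a bar and the SD as whiskers (n = 4). In every panel the groups overlap, and *Lrp2* runs from 25.8 to 82.6 FPKM while *Amn* stays between 20.9 and 31.7 FPKM.

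The intervals differed in width. On the scale log2(FPKM + 1), the 95% interval of the fold change lay within 1.5-fold in either direction for *Amn*, *Clcn5*, *Ocrl* and *Fcgrt*. Relative to the proximal tubule markers this bound was lost for all 4, and with libraries at a common median ratio also for *Amn* (-0.72 to 0.39). For *Clcn5* it was also lost with a pseudocount of 0.1 (-0.04 to 0.61) and under several other alternatives, such as without db/db mouse 4 (0.01 to 0.63). For *Fcgrt* it was also lost under several other alternatives, such as without db/db mouse 3 (-0.11 to 0.63). For *Lrp2*, *Cubn*, *Dab2* and *Lrpap1* the 95% interval reached beyond 1.5-fold, on both sides for *Lrp2* and *Cubn*. With 4 mice per group these data thus do not bound the change of these 4 genes at that size. The sign of 5 of the 8 differences also depended on single mice or on scaling: without rFGF4 mouse 1, *Cubn*, *Amn* and *Lrpap1* had log2 fold changes of 0.23, 0.05 and 0.03 and *Ocrl* one of -0.09, and *Lrp2* was at -0.0045 after scaling to a common median ratio.

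**Figure D2:**
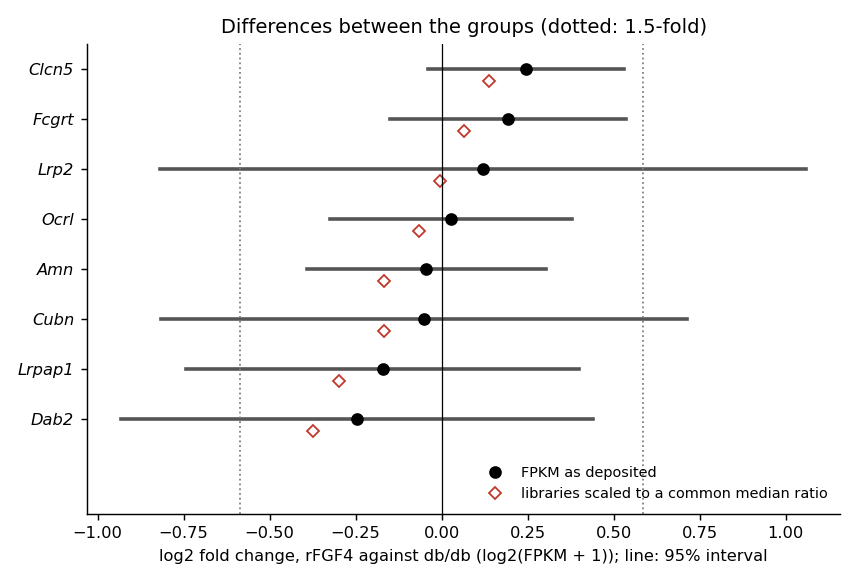
Log2 fold change (horizontal axis) of each gene, rFGF4 against db/db, as a point with its 95% interval, with dotted lines at 1.5-fold and open diamonds for libraries scaled to a common median ratio. All 8 intervals cross 0, from -0.82 to 1.06 for *Lrp2* and from -0.04 to 0.53 for *Clcn5*.

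The expression of the receptors and their chaperone went up and down together over the mice. Across the 28 pairs of the 8 genes, on the scale log2(FPKM + 1) over 8 mice, 4 had an adjusted permutation p under 0.05 for Pearson's r and 1 for Spearman's rho. The first count was 10 with the libraries scaled to a common median ratio, 10 without db/db mouse 3, 2 without db/db mouse 2 and 1 without rFGF4 mouse 1. *Lrp2* and *Cubn* had the closest relation, with r = 0.98 (exact permutation p = 9.92e-05, adjusted over 28 pairs 0.00278) and rho = 0.976 (exact permutation p = 0.000397, adjusted 0.0111), and r was 0.957 without rFGF4 mouse 1 and db/db mouse 3, the mice farthest from the median of *Lrp2*. With any 1 mouse left out, the adjusted exact permutation p of this pair was 0.00556 to 0.0222. The 3 low kidneys and the other 5 were apart in *Lrp2*, though *Cubn* had rFGF4 mouse 2 between them.

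*Cubn* and *Lrpap1* had r = 0.963 (adjusted permutation p = 0.00938, rho = 0.905 with adjusted p = 0.0639) and r = 0.939 without those 2 mice. *Lrp2* and *Lrpap1* had r = 0.897 (adjusted permutation p = 0.0150, rho = 0.833 with adjusted p = 0.108) and r = 0.817 without them. Without rFGF4 mouse 1 alone, neither pair passed adjustment (permutation p adjusted over 28 pairs 0.0750 and 0.157). *Lrp2* and *Lrpap1* also missed it without rFGF4 mouse 2, db/db mouse 2 or db/db mouse 4 (adjusted permutation p = 0.0556, 0.0556 and 0.0528) and stood at 0.05 without rFGF4 mouse 5. *Amn* and *Ocrl* were opposed (r = -0.866, adjusted permutation p = 0.0290, rho = -0.738 with adjusted p = 0.179), but this relation rested on rFGF4 mouse 1 and db/db mouse 5, without which r was -0.407, and on the scale, since r was -0.32 with libraries scaled to a common median ratio. Its adjusted permutation p was 0.293, 0.101, 0.0653 and 0.180 without rFGF4 mouse 1, rFGF4 mouse 3, db/db mouse 2 or db/db mouse 5 in turn.

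*Dab2* and the receptor it adapts had no relation that passed the test. Its r with *Lrp2* was -0.36 (exact permutation p = 0.367, adjusted 0.616), and 0.49 without rFGF4 mouse 1 and db/db mouse 3. *Amn* had r = 0.753 with *Lrp2* and 0.790 with *Cubn*, neither of which passed adjustment (adjusted permutation p = 0.119 and 0.0982). All values of a mouse come from 1 library and share its scaling.

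**Figure D3:**
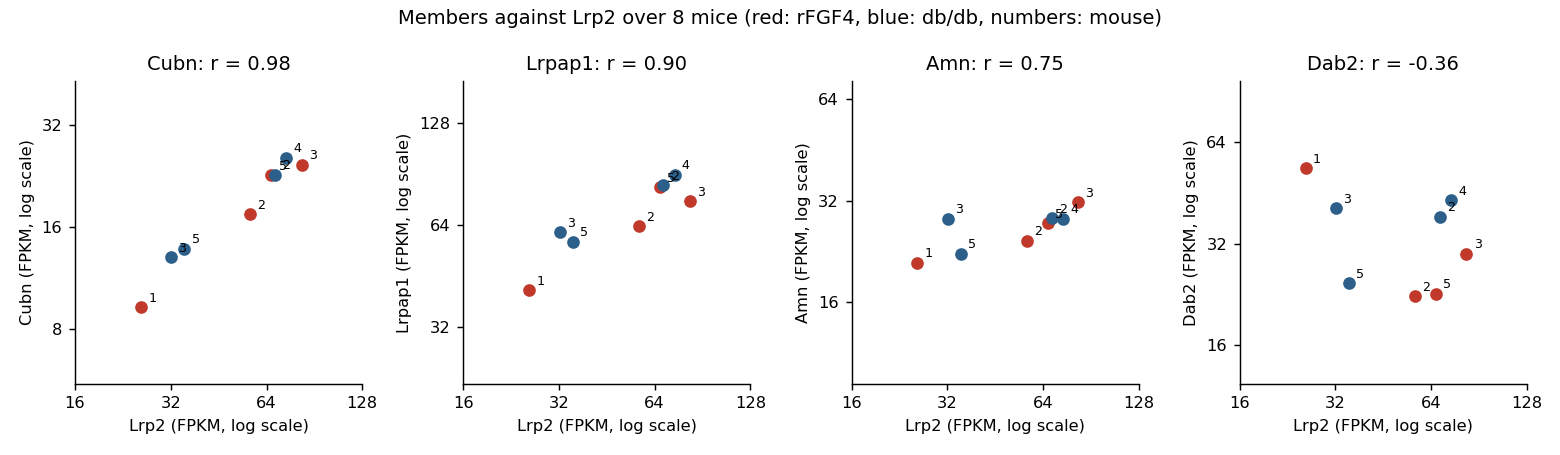
FPKM of *Cubn*, *Lrpap1*, *Amn* and *Dab2* (vertical, log scale) against *Lrp2* (horizontal, log scale) in 8 mice, rFGF4 in red and db/db in blue. *Cubn* lies close to a line with *Lrp2* (r = 0.98), and *Dab2* is highest in the kidney with the least *Lrp2* (r = -0.36).

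Ratios of a pair of genes within a kidney were compared next. The *Lrp2* to *Cubn* ratio was 2.77, 3.26, 3.37 and 2.91 in rFGF4 mice 1, 2, 3 and 5 and 2.98, 2.46, 2.88 and 2.56 in db/db mice 2, 3, 4 and 5. It was thus much steadier than either gene, with a coefficient of variation of 10.8% over the 8 mice where *Lrp2* alone had 38.7%, and the groups overlapped (3.08 ± 0.285 and 2.72 ± 0.251, SD, n = 4 each, exact permutation p = 0.143, adjusted over 4 ratios 0.457). The *Dab2* to *Lrp2* ratio, in contrast, ran from 0.344 in rFGF4 mouse 5 to 2.07 in rFGF4 mouse 1, a coefficient of variation of 76.4%. Between these lay *Lrpap1* to *Lrp2*, with 23.6%, and *Amn* to *Cubn*, with 28.9%. For neither did a difference between the groups pass the test (exact permutation p = 0.229 and 0.971, adjusted 0.457 and 0.971). As the smallest exact permutation p is 0.0286, a single differing ratio could not pass after adjustment over 4.

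By level, taken as FPKM and so per length of exon, the order over the 8 mice was *Lrpap1* (mean 69.4), *Fcgrt* (60.1), *Lrp2* (55.1), *Dab2* (34.4), *Amn* (26.5), *Cubn* (18.7), *Clcn5* (5.41) and *Ocrl* (2.24). The first 4 steps of this order were not beyond the spread between mice, with adjusted p from 0.153 to 0.352 in two-sided exact sign-flip permutation tests. *Amn* was above *Cubn*, *Cubn* above *Clcn5* and *Clcn5* above *Ocrl* in 8 of 8 mice, by geometric means of 1.48, 3.303 and 2.43 times, each with a p of 0.00781 in the exact permutation test, its lowest possible value with 8 mice (adjusted 0.0182).

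The receptor genes also followed the general markers of the proximal tubule. With the mean log2(FPKM + 1) of the 12 markers, *Lrp2* had r = 0.938 over 8 mice (adjusted permutation p = 0.00476, rho = 0.905 with adjusted p = 0.0290, r = 0.930 without the 2 outermost mice) and *Cubn* r = 0.948 (adjusted permutation p = 0.00516, rho = 0.881 with adjusted p = 0.0290, r = 0.875 without them). *Lrpap1* had r = 0.907, but 0.622 without those 2 mice (adjusted permutation p = 0.0119, rho = 0.762 with adjusted p = 0.0733). Taken relative to the marker mean, the SD over the mice fell from 0.62 to 0.23 for *Lrp2*, from 0.50 to 0.16 for *Cubn* and from 0.37 to 0.23 for *Lrpap1*, on the log2 scale. For the other 5 genes it became larger, as in *Dab2*, where it went from 0.46 to 0.84, and *Fcgrt*, where it went from 0.21 to 0.48.

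*Amn* and *Ocrl* had r = 0.783 and -0.810 with the markers (adjusted permutation p = 0.0355 and 0.0369), which became 0.25 and 0.15 without the 2 outermost mice. *Dab2* (r = -0.512), *Clcn5* (0.498) and *Fcgrt* (0.323) had no relation that passed adjustment (adjusted permutation p = 0.244, 0.244 and 0.422). Without the 2 outermost mice their r was -0.33, 0.81 and 0.21, and the rho of *Clcn5* over all 8 was 0.762 (adjusted permutation p = 0.0733). With all libraries brought to the same marker mean, 0 of 8 genes had an unadjusted limma p under 0.05 between the groups.

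The 3 kidneys lowest in *Lrp2*, *Cubn* and *Lrpap1* were also the 3 lowest in summed proximal tubule markers. Among 7 genes that injured tubules switch on, led by osteopontin (*Spp1*), the summed FPKM was 11180, 3392, 2525 and 740 in rFGF4 mice 1, 2, 3 and 5 and 727, 5443, 704 and 3452 in db/db mice 2, 3, 4 and 5. By this sum rFGF4 mouse 1 and db/db mice 3 and 5 were the 3 highest, the last only just above rFGF4 mouse 2, and by the mean log2 level of the list rFGF4 mouse 2 (5.37) was above db/db mouse 3 (4.60). *Havcr1*, which encodes the injury marker KIM-1 and is named here for that role, was at 280, 59.8, 42.2 and 0.675 FPKM in rFGF4 and at 0.0888, 15.4, 0.555 and 41.7 FPKM in db/db, in the same order of mice. The 7 macrophage markers, led by *Lyz2*, summed to 1250, 449, 123 and 87.7 FPKM in rFGF4 and to 45.3, 337, 60.8 and 1766 FPKM in db/db. The part of injury, of infiltrating cells or of RNA quality in the low receptor levels was not tested.

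**Figure D4:**
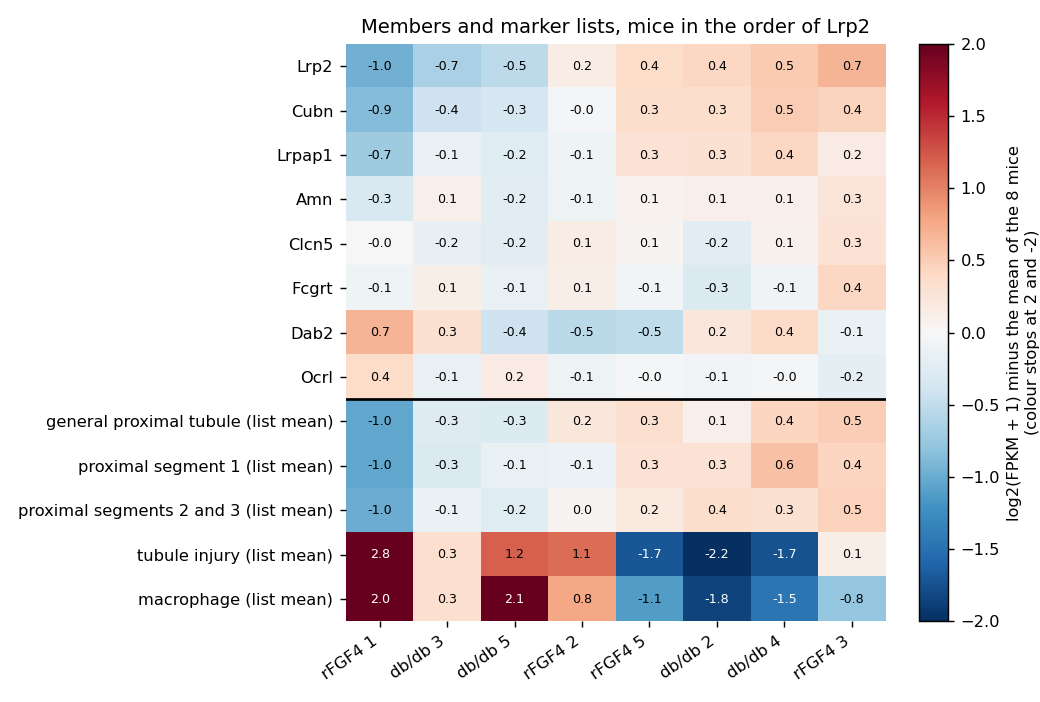
Difference of log2(FPKM + 1) from the mean of the 8 mice (colour and number in each cell, colour ending at 2 and -2) for the 8 genes and for the means of 5 marker lists, with mice ordered by *Lrp2* from left to right. *Lrp2*, *Cubn* and *Lrpap1* change from blue to red with the proximal tubule lists, *Fcgrt* and *Clcn5* stay pale, and *Dab2* follows neither.

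Around these 8 genes, 86 genes in 6 lists describe the rest of the route, from coated pit to lysosome, and 84 of them were tested. At an unadjusted limma p under 0.05, 9 were higher in rFGF4 and 0 lower, or 10.7% beside the 4.62% of all tested genes, and none passed adjustment (adjusted p = 0.918 for each of the 9). These lists were drawn up with earlier results of these data known, so neither share is independent evidence. With the libraries scaled to a common median ratio, 3 were higher (*Cltc*, *Lgmn* and *Rab11b*) and 1 lower (*Rab38*, a GTPase of lysosome-related organelles, named here after its values were seen, at a log2 fold change of -0.37), and the genes with a positive difference went from 66 to 47 of 84. Relative to the proximal tubule markers 2 were higher and 0 lower. The number higher was 4 without rFGF4 mouse 2 or db/db mouse 3, 5 without rFGF4 mouse 3 and 15 without rFGF4 mouse 5. The groups did not overlap in 6 of the 84 genes, or 7.14% beside 3.33% of all tested genes. Between the same groups, all 5 red blood cell markers had a lower mean in rFGF4 (median log2 fold change -1.97) and all 7 tubule injury genes a higher one (median 1.01), with 0 of either at an unadjusted limma p under 0.05. All 7 macrophage and all 5 podocyte markers were on the higher side (medians 0.43 and 0.26, with 0 and 1 at that p), and all 6 endothelial, all 4 distal convoluted tubule and all 4 principal cell markers on the lower (medians -0.20, -0.39 and -0.13, with 1, 0 and 0 at that p). Of 5 genes listed as liver markers, 4 were on the higher side (median 0.46). The 1 at that p was the most abundant of them, *Serpina1a* (mean 243 FPKM). Albumin (*Alb*), named here after its values were seen, had a mean of 9.71 FPKM and a log2 fold change of 0.17. The mean log2 level of the 5 genes, 3.79 to 4.43 in rFGF4 and 3.48 to 3.71 in db/db, did not overlap between the groups. Nor did that of the acidification list, given below. The red blood cell markers summed to 120 to 2657 FPKM in rFGF4 and 1139 to 4325 FPKM in db/db. The part of these lists in the pathway counts was not tested.

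For the coat, 1 of 14 genes was at that p, the clathrin heavy chain *Cltc*, with 27.9 ± 4.41 FPKM in rFGF4 and 19.2 ± 3.64 FPKM in db/db (SD, n = 4 each, log2 fold change 0.52). Endosome sorting gave 2 of 19. *Rab11b*, a GTPase of recycling endosomes whose exons overlap those of Gm17251 on the opposite strand, was at 23.8 ± 4.95 FPKM in rFGF4 and 9.07 ± 5.70 FPKM in db/db (SD, n = 4 each, log2 fold change 1.44). *Rab7*, a GTPase of late endosomes whose exons overlap those of Gm5577, was at 156 ± 12.4 and 130 ± 5.87 FPKM (SD, n = 4 each, log2 fold change 0.26).

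Lysosomal breakdown gave 3 of 13, all proteases. Legumain (*Lgmn*) had 399 ± 58.6 FPKM in rFGF4 and 266 ± 53.8 FPKM in db/db (SD, n = 4 each, log2 fold change 0.60), cathepsin H (*Ctsh*) a log2 fold change of 0.40, and tripeptidyl peptidase 1 (*Tpp1*) one of 0.48. In the acidification list, mostly subunits of the proton pump, 0 of 19 passed, and its most abundant members *Atp6v1g1* and *Atp6v1f* had log2 fold changes of 0.00 and -0.09. The mean log2 level of that list, 4.78 to 4.94 in rFGF4 and 4.61 to 4.75 in db/db, did not overlap between the groups with FPKM as deposited. Of the LDL receptor family outside *Lrp2*, 0 of 9 tested genes passed, and *Lrp1b* and *Lrp8* were too low to be tested. Its most abundant members, *Lrp10* (mean 20.5 FPKM) and the sorting receptor *Sorl1* (mean 11.6 FPKM), had log2 fold changes of 0.10 and 0.04.

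Transcription factors of proximal tubule genes gave 3 of 10. The fatty acid receptor *Ppara* was at 8.41 ± 5.20 FPKM in rFGF4 and 2.77 ± 1.55 FPKM in db/db (SD, n = 4 each, log2 fold change 1.26), its partner *Rxra* had a log2 fold change of 0.43, and *Maf*, whose exons overlap those of Gm15655, one of 0.30. The medians of the 6 lists, in the order given here, were 0.20, 0.10, 0.23, 0.09, 0.10 and 0.08 on the log2 scale, beside 0.09 over all tested genes.

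**Figure D5:**
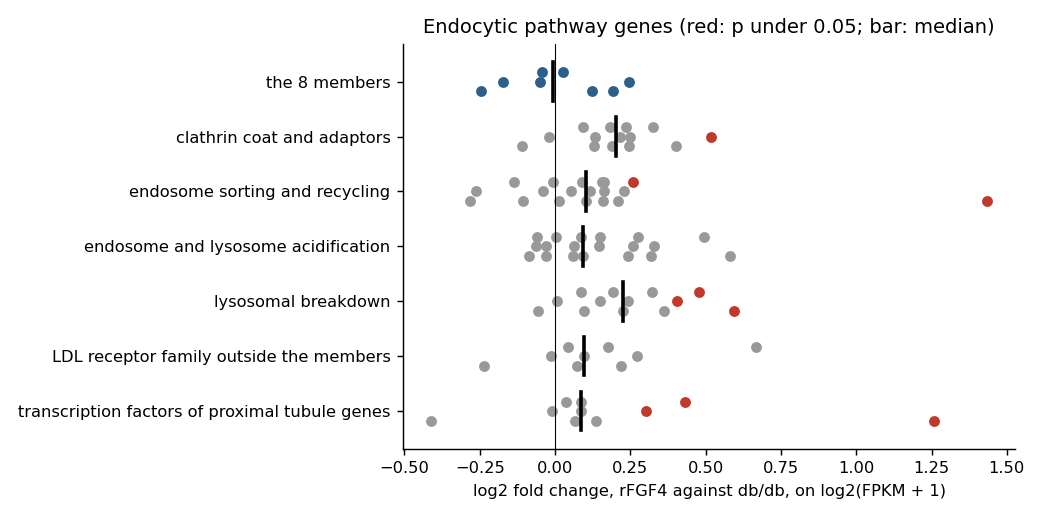
Log2 fold change, rFGF4 against db/db (horizontal axis), of the 8 genes (blue) and of the tested genes of 6 pathway lists, with the median as a bar and red for an unadjusted p under 0.05. With FPKM as deposited, red points are 9 of 84 and all lie to the right of 0 (3 higher and 1 lower after scaling to a common median ratio), while the 8 genes lie on both sides of it.

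Genes elsewhere in the table whose pattern over the 8 mice was most like that of *Lrp2*, of 15142 ranked by Pearson's r, included *Acad11* (0.993) and *Lrrc19* (0.992). For *Cubn* they were *Ppargc1b* (0.994), *Slc25a16* (0.992) and *Slco1a6* (0.991). *Dab2* had looser neighbours, Gm7832 (0.941), *Zbtb33* (0.939) and Particl (0.912), all at low levels. These values describe 8 points that share libraries and were picked as the highest of many.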

How the data were processed

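Poly(A) RNA of kidney from 8 mice was sequenced in pairs of reads, 1 library per mouse, 4 rFGF4 and 4 db/db. The authors assembled mapped reads with StringTie, merged transcripts with gffcompare and deposited FPKM for 55401 genes. The submitters' processing notes list Bowtie 0.12.2, HISAT2 2.0, StringTie 1.3.0 and the build mm8, with no role or order. The table also holds the authors' deposited fold change (a ratio), its log2 and the p-value and q-value of a comparison of the groups, which were not used (the methods name edgeR, the column headings no tool). A deposited value of 0.0001 was taken as 0. As no counts are held, edgeR could not be run here.

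Genes with at least 0.5 FPKM in 4 or more libraries (15150) were transformed as log2(FPKM + 1), which understates changes of low genes, and the groups compared by limma 3.58.1 (R 4.3.3, trended prior) with Benjamini-Hochberg adjustment over all of them. Single values were compared by two-sided exact permutation tests (scipy 1.17.1, Python 3.11.15), and figures drawn with matplotlib 3.10.9. The fit was tested on simulated data. Positions come from GENCODE M21 on GRCm38, which holds 99.5% of the identifiers, and promoter sequences from RefSeq. All 8 genes were named with every mouse's value, then genes of the 6 pathway lists at an unadjusted p under 0.05 or, with none, the 2 most abundant, the most abundant gene of a marker list, and the 3 genes most like *Lrp2*, *Cubn* and *Dab2*. The results of 2 genes that this rule names are not reported here. Members and lists were chosen with earlier results of these data known. Alternatives were a pseudocount of 0.1, no filter, scaling to a common median ratio or to proximal tubule markers, array weights, each mouse left out and a replicate block. The shared mouse numbers 2, 3 and 5 did not pair the mice (correlation of their deviations -0.229, -0.155 and -0.393).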

Additional observations from a re-analysis of the deposited data

Results flagged for a closer look

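A sample was singled out where its gap to its nearest neighbour, divided by the range of its group of 4, was above Dixon's critical value for 4 samples. Of 60 groups examined, 6 held such a sample, where chance gives about 1 in 20, or 3. Among the endocytosis genes, *Amn* in db/db mouse 5, at 22.3 FPKM below 3 nearly equal kidneys, had a ratio of 0.984, and *Clcn5* in db/db mouse 4, at 5.77 FPKM above the others, one of 0.866. For the mean log2 level of the clathrin coat and adaptor list, db/db mouse 5 lay above its group with 0.962, and for that of endosome sorting and recycling with 0.835. The acidification list stood out in rFGF4 mouse 2, above its group, with 0.886. The summed FPKM of db/db mouse 5, at 481318 below its group, had a ratio of 0.840. That mouse was also highest in macrophage markers, with a sum of 1766 FPKM, and in B and plasma cell markers, with 594 FPKM, whose part in these values was not tested.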

How the results depend on the processing

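Over 15 alternatives, 95 of 120 fold changes of the 8 genes kept their direction and their side of an unadjusted p of 0.05, 21 changed sign and 4 passed that p, none passed the study's threshold, and the smallest adjusted p was 0.391 (limma). A pseudocount of 0.1 gave 348 genes at the study's threshold in place of 231. Scaling to a common median ratio gave -0.0045 for *Lrp2* and -0.065 for *Ocrl*, 4 pathway genes (3 higher and 1 lower) in place of 9 higher, 10 correlated pairs in place of 4, and a split of 93 higher and 81 lower genes in place of 165 and 66. Relative to proximal tubule markers, 2 pathway genes passed. Array weights gave 490 genes at the threshold, 14 pathway genes (13 higher and 1 lower), -0.048 for *Ocrl* and 1 of the 8 genes at p under 0.05, *Dab2* at -0.58. The replicate block over the shared numbers gave a median of 0.20 for the 8 genes, 5 pathway genes, and 0.66 for *Lrp2* (against 0.12 over all mice), 0.39 for *Cubn*, 0.080 for *Amn*, -0.092 for *Ocrl* and 0.14 for *Lrpap1*. The same 6 mice without the block, an alternative chosen after seeing the data like those of the pairs, gave the median and those 5 values alike and 1 gene at p under 0.05, *Clcn5* at 0.36. Leaving out each mouse gave 0 to 1 of the 8 genes at p under 0.05, a median of -0.11 to 0.14, 187 to 575 genes at the threshold (575 without rFGF4 mouse 5, 432 without db/db mouse 5), 4 to 15 pathway genes and 1 to 10 pairs (1 without rFGF4 mouse 1, 2 without db/db mouse 2, 10 without db/db mouse 3). The fold changes then ran from -0.086 to 0.46 for *Lrp2*, -0.21 to 0.23 for *Cubn*, -0.14 to 0.053 for *Amn*, -0.52 to -0.11 for *Dab2*, 0.19 to 0.32 for *Clcn5*, -0.091 to 0.098 for *Ocrl*, 0.088 to 0.26 for *Fcgrt* and -0.30 to 0.035 for *Lrpap1*. The cause of these shifts was not tested. Without the filter, and without db/db mouse 2, 4 or 5, 1 gene each had an adjusted p under 0.05. Depth is unknown, so counting error could not be set against the spread between mice.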
